A study of Mus musculus with 7 samples.

Results

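The genes described here are 10 markers of mature and of reactive astrocytes, Gfap, Aqp4, Gja1, Gjb6, Aldh1l1, Agt, S100b, Slc4a4, Lcn2 and Serpina3n. They were taken by symbol from a table of 19257 named genes, and all 10 were found there. The table holds bulk RNA-Seq of endpoint brain tumors of a mouse glioma model, in which plasmids were electroporated in utero into progenitor cells that line the lateral ventricles. All tumors, those of the comparison group included, received Cas9 with guides against tumor suppressor genes including Trp53 and Nf1, and this is the 3xCR group (genotype "control", 3 libraries, replicates 2 to 4). The GPC6 group (4 libraries, replicates 1 to 4) also received GPC6 for overexpression from piggyBac. GPC6 is a glypican that promotes the formation of excitatory synapses, and the comparison asks what it adds to tumors of the 3xCR kind. The model was made on CD-1 and C57BL/6 backgrounds, each library comes from 1 brain, and the age of each animal is not given in the sources used here. No brain without a tumor was among the libraries, so levels in healthy tissue are not part of these data.

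Astrocytes are the glial cells that clear glutamate and potassium from the extracellular space, pass small molecules to each other through gap junctions, and cover blood vessels with specialized endfeet. When the brain is injured or invaded by a tumor they become reactive, a state in which they enlarge their intermediate filaments and secrete acute-phase proteins. Glioma cells share many of these genes with astrocytes, and some members have further sources, since S100b is made by cells of the oligodendrocyte lineage and Lcn2 by neutrophils. In bulk tissue a lower level can come from fewer astrocytes or from less RNA per cell, and these cannot be told apart.

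The libraries held 7197692 to 18879762 reads on genes, of which the 10 members took 0.157% to 0.492%. A count of 0 would allow up to 4.64 normalized counts in the shallowest library, and no member came near that. The lowest value of any member was that of Gjb6 in 3xCR replicate 4, with 13 reads. Gpc6 itself, the overexpressed gene, had 217, 226 and 126 normalized counts (reads divided by the size factor of the library) in 3xCR replicates 2, 3 and 4. In the libraries labelled GPC6 replicates 1, 2, 3 and 4 it had 675, 263, 3434 and 5084, so that replicate 2 of that group lay close to the 3xCR level. GPC6 replicate 1 and 3xCR replicate 4 stood apart in markers of other cell types. In GPC6 replicate 1 the summed hypothalamic neuron markers were 1187 normalized counts against 16.7 to 65.6 in the other 6 libraries, the pan-neuronal markers 60801 against 6870 to 32137, and the proliferation markers 1145 against 6068 to 14613. In 3xCR replicate 4 the summed monocyte and macrophage markers were 34872 against 638 to 11437. Lyz2 made up 29595 of this sum, and Ly6c2, Plac8 and Ms4a7 were also highest there (2394, 909 and 1530). Ccr2, Mrc1, F13a1 and Cd163 were not, at 191, 203, 30.4 and 20.7. Their highest values elsewhere were 259, 249, 138 and 89.3. The collagen genes Col1a1 and Col1a2, markers of fibroblasts, were at 9756 and 16800 in 3xCR replicate 4, against 40.2 to 1073 and 169 to 984. Of the other listed fibroblast markers, Dcn and Lum were also highest there (1046 and 133). Pdgfra and Slc6a13 were lowest there (2309 and 4.14), and Igf2, at 115, was below all but GPC6 replicate 4 (68.9).

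No member of the astrocyte set differed between GPC6 and 3xCR tumors by more than the spread between tumors. In limma on log2(normalized count + 1), 0 of the 10 members passed an adjusted p under 0.05 and 0 passed an unadjusted p under 0.05, as was the case with edgeR's quasi-likelihood test and with the Wald test of DESeq2. Over all 14782 genes tested, limma called 0 genes at the adjusted threshold (0% of genes), edgeR 0 and DESeq2 4 of 18973 (0.0211%). At an unadjusted p under 0.05 limma had 4.66% of genes (2.74% higher and 1.92% lower in GPC6 tumors), edgeR 6.70% and DESeq2 9.77%. The groups overlapped for every member, where 6.32% of all genes had groups that did not overlap (2.80% higher and 3.52% lower in GPC6 tumors). Mean log2 values were higher in GPC6 tumors for 5 members (Agt, Gjb6, Slc4a4, Gja1 and Aldh1l1) and lower for 5 (Lcn2, Serpina3n, Aqp4, S100b and Gfap). For the gene lists below, too, a higher or lower mean is that of the log2 values. Over all 14782 genes tested, 7142 had a higher and 7640 a lower mean in GPC6 tumors. The median log2 fold change was -0.15 over the members and -0.02 over all genes. The split depended most on 2 libraries, as 1 member was higher and 9 lower without 3xCR replicate 4 (median -0.59), and likewise without GPC6 replicate 1 (median -0.39). Without GPC6 replicate 3 the median was also lower, at -0.35, with 4 members higher and 6 lower. Without 3xCR replicate 2, 3xCR replicate 3, GPC6 replicate 2 or GPC6 replicate 4, the median was above 0, at 0.10, 0.14, 0.17 and 0.04.

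**Figure D1:**
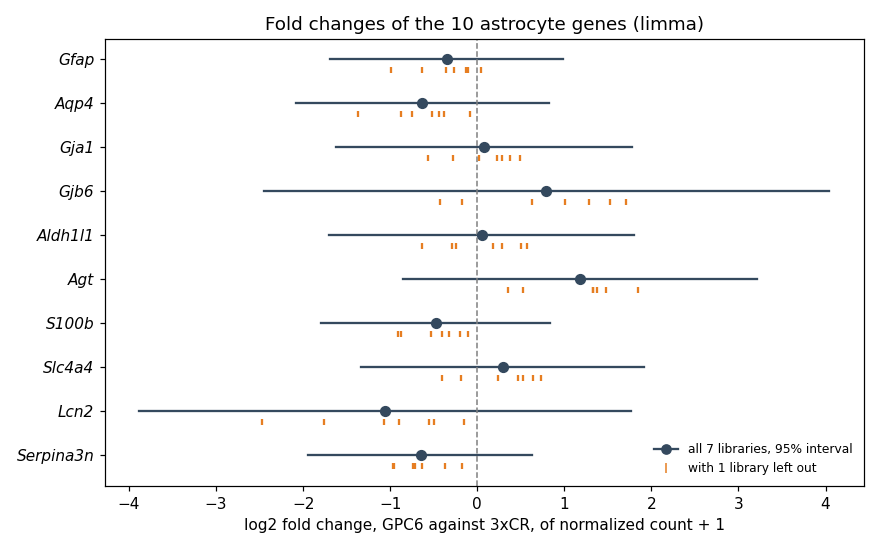
Log2 fold change of each gene in GPC6 against 3xCR tumors on the x axis, with its 95% interval (dot and line, 7 libraries) and the values with 1 library left out (orange ticks). All 10 intervals include 0, from the narrow one of Serpina3n (-1.94 to 0.63) to the wide one of Gjb6 (-2.45 to 4.04).

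Most of the log2 variance of each member lay among tumors of the same group, as it did for the median gene. With 3 and 4 libraries a small share between groups is usual even without a difference. The shares are therefore given beside that of the median gene, which Agt and Serpina3n exceeded. The share of the log2 variance that lay between the groups was 0.0626% for Aldh1l1 and 0.159% for Gja1, and it reached 16.5% for Serpina3n and 19.2% for Agt, beside a median of 14.2% over all genes tested. Over the 7 libraries the highest value of a member was between 4.16 times (Gfap) and 75.4 times (Gjb6) its lowest. The standard deviation of the log2 values was 0.81 for Gfap, 1.90 for Lcn2 and 2.12 for Gjb6, where the median gene had 0.52. Gjb6 and Lcn2 were thus more variable than 98.0% and 96.5% of genes tested, and the least variable member, Gfap, more than 72.5%.

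**Figure D2:**
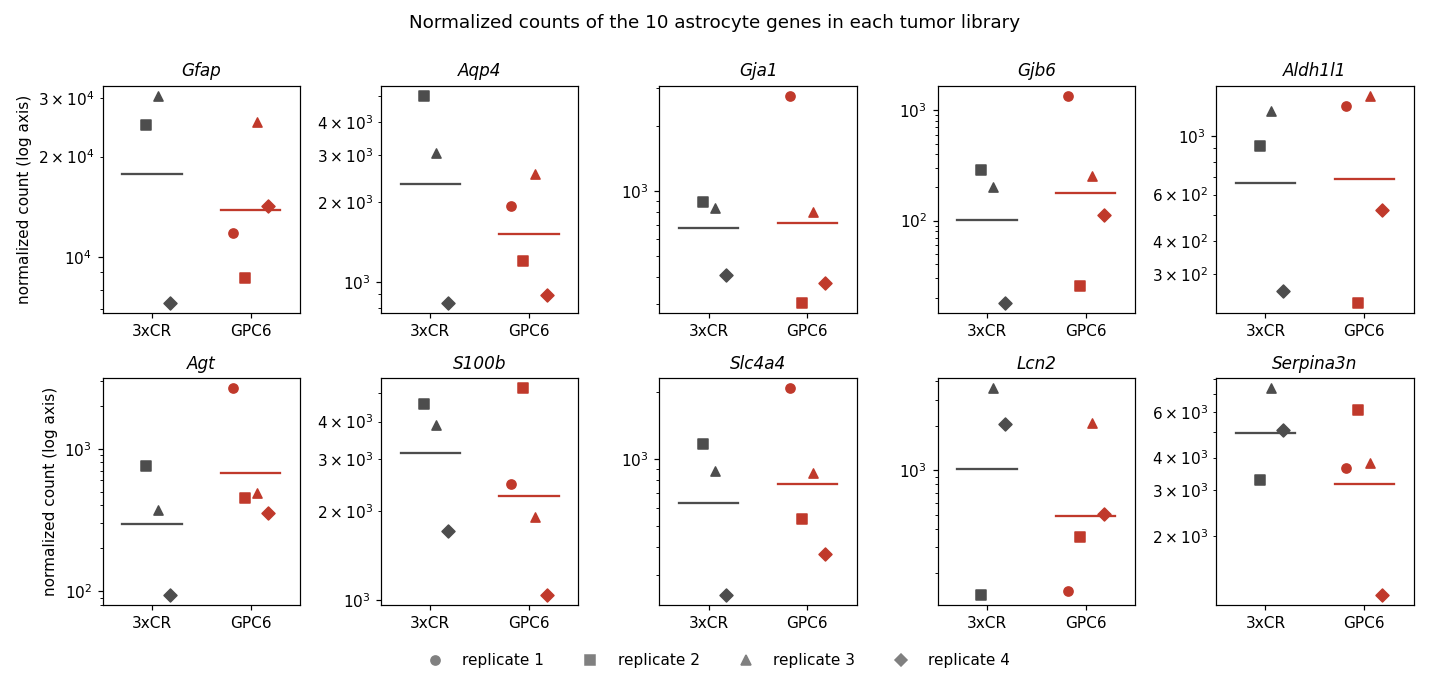
Normalized counts (log axis) of the 10 genes in the 3 libraries of 3xCR tumors (grey) and the 4 of GPC6 tumors (red), with a marker shape for each replicate number and a bar at the geometric mean of the group. In every panel the points of the groups overlap, and 3xCR replicate 4 is the lowest library for Gfap, Aqp4, Gjb6, Agt and Slc4a4.

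Gfap encodes the intermediate filament protein of astrocytes and is the classical marker of their reactivity. It reached 24861, 30392 and 7310 normalized counts in 3xCR replicates 2 to 4, and 11789, 8662, 25354 and 14206 in GPC6 replicates 1 to 4. All 4 GPC6 libraries fell inside the range of the 3xCR libraries, whose high and low ends were 4.16 times apart. The means were 20854 ± 12052 (SD, n = 3) and 15003 ± 7265 (SD, n = 4), a log2 fold change of -0.35 with a standard error of 0.58 (limma adjusted p = 0.866), which became 0.04 without 3xCR replicate 3. Gfap was among the most abundant transcripts of these tumors, above 99.8% of genes tested by normalized count, and it alone took 0.0636% to 0.288% of the reads of a library. The other intermediate filament genes looked at were Vim, Nes, Synm, Des, Nefl, Nefm, Nefh, Ina and Plec. Their means were higher in GPC6 tumors for 6 and lower for 3 of 9, with Ina and Nefm, filaments of neurons, below an unadjusted p of 0.05 (log2 fold changes of 1.94 and 1.63, limma adjusted p = 0.730 for both), beside 2.74% of all genes in this direction. The summed pan-neuronal markers were 60801 and 32137 in GPC6 replicates 1 and 3, the libraries highest in both genes, against 6870 to 12090 in the others, and their part in these values was not tested. Vim, the filament partner of Gfap in reactive astrocytes and also made by glioma cells, microglia and vessels, had 15450 ± 3826 (SD, n = 3) normalized counts in 3xCR and 8722 ± 3330 (SD, n = 4) in GPC6 tumors (log2 fold change -0.89 ± 0.41 (SE), adjusted p = 0.730 in limma).

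Aqp4 encodes the water channel of the astrocyte endfoot. It had 5028, 3059 and 836 normalized counts in 3xCR replicates 2 to 4 and 1931, 1200, 2541 and 893 in GPC6 replicates 1 to 4. The 3xCR libraries enclosed the GPC6 values on both sides, and the log2 fold change was -0.63 with a standard error of 0.63 (limma adjusted p = 0.782). Leaving out the low 3xCR replicate 4 gave -1.37, and leaving out the high 3xCR replicate 2 gave -0.08. Gfap and Aqp4 were close in pattern, with a root mean square difference of 0.51 between their log2 values after each was centred on its own mean over the 7 libraries, which put them second among the 45 pairs of members. The ratio of Gfap to Aqp4 was 4.94, 9.93 and 8.75 in the 3xCR libraries and 6.11, 7.22, 9.98 and 15.9 in the GPC6 libraries. Proteins that anchor the channel at the endfoot were steady in comparison. Among 8 such genes, 3 had a higher and 5 a lower mean in GPC6 tumors and the median log2 fold change was -0.03, with Dag1, the dystroglycan that binds the vascular basement membrane, at 2385 ± 470 (SD, n = 3) and 2337 ± 458 (SD, n = 4). Dtna had the largest log2 fold change of them (0.44) and Sntb2 the smallest (-0.17).

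Gja1 and Gjb6 encode connexin 43 and connexin 30, the main gap junction proteins of astrocytes. Gja1 had 891, 832 and 409 normalized counts in the 3xCR libraries and 2753, 305, 802 and 377 in the GPC6 libraries. The GPC6 group held both the highest library (replicate 1) and the 2 lowest (replicates 2 and 4), with a log2 fold change of 0.08 and a standard error of 0.74 (limma adjusted p = 0.981). Gjb6 had 287, 203 and 18.0 in 3xCR replicates 2 to 4 and 1354, 25.7, 251 and 113 in GPC6 replicates 1 to 4. GPC6 replicate 1 was again the highest library, while 3xCR replicate 4 and GPC6 replicate 2 were both nearly without this connexin. Its log2 fold change of 0.79 had the largest standard error of the set, 1.40 (limma adjusted p = 0.875). Both directions turned without GPC6 replicate 1 (-0.57 for Gja1 and -0.18 for Gjb6) and without 3xCR replicate 4 (-0.28 and -0.43). The connexins did not keep a fixed proportion. Per Gja1, the level of Gjb6 was 0.322 and 0.244 in 3xCR replicates 2 and 3 but 0.0439 in replicate 4, and 0.492, 0.313 and 0.301 in GPC6 replicates 1, 3 and 4 but 0.0841 in replicate 2. Of the other connexins and pannexins, 9 of 10 were tested, with 5 higher and 4 lower in GPC6 tumors, 0 of them below an unadjusted p of 0.05 and a median log2 fold change of 0.03. The most abundant was Gjc3, a connexin of oligodendrocytes, with 1915 ± 572 (SD, n = 3) against 2258 ± 1511 (SD, n = 4). Gjd2, the connexin of electrical synapses between neurons, had the largest log2 fold change (2.00) and Gjb1, another oligodendrocyte connexin, the smallest (-1.31).

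Aldh1l1 encodes the folate enzyme 10-formyltetrahydrofolate dehydrogenase and marks astrocytes throughout the brain. It had 913, 1246 and 258 normalized counts in 3xCR replicates 2 to 4 and 1297, 234, 1418 and 524 in GPC6 replicates 1 to 4. Each group thus held 2 libraries at a high level and the GPC6 group the lowest, with 3xCR replicate 4 close to it. The log2 fold change was 0.05 with a standard error of 0.76 (limma adjusted p = 0.988), and it was -0.63, -0.25 and -0.29 without 3xCR replicate 4, GPC6 replicate 1 or GPC6 replicate 3 and -0.0008 after scaling to an equal upper quartile. Exons of an antisense RNA (Gm15756) and of a lincRNA (Gm45901) overlap those of Aldh1l1, and although the library kit kept the strand, whether the counting used it is not stated. Of 10 other genes of folate one-carbon metabolism, which also serve dividing cells, 1 had a higher and 9 a lower mean in GPC6 tumors (median log2 fold change -0.28), with 0 below an unadjusted p of 0.05. Shmt1 stood at one end (0.11) and the mitochondrial Mthfd2 at the other (-1.32), and Shmt2 was the most abundant with 1499 ± 525 (SD, n = 3) in 3xCR and 1115 ± 538 (SD, n = 4) in GPC6 tumors.

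Slc4a4 encodes a sodium bicarbonate cotransporter with which astrocytes regulate pH. It had 1169, 886 and 244 normalized counts in 3xCR replicates 2 to 4 and 2082, 534, 864 and 373 in GPC6 replicates 1 to 4. GPC6 replicate 1 lay above and the other 3 GPC6 libraries within the 3xCR range. Its log2 fold change was 0.29 with a standard error of 0.71 (limma adjusted p = 0.911), and -0.40 and -0.19 without 3xCR replicate 4 or GPC6 replicate 1. Among 45 pairs of members, Slc4a4 and Gja1 were the closest in pattern (root mean square difference 0.47), and Slc4a4 and Agt were next but one (0.58). Of 12 other bicarbonate transporters and carbonic anhydrases tested, 6 were higher and 6 lower, from Slc4a10, which neurons express (1.68), to Slc4a5 of the choroid plexus (-1.63), and 0 were below an unadjusted p of 0.05. Car2, the most abundant, had 1385 ± 291 (SD, n = 3) and 1201 ± 723 (SD, n = 4).

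S100b encodes a calcium-binding protein of astrocytes and of the oligodendrocyte lineage. It had 4598, 3887 and 1714 normalized counts in 3xCR replicates 2 to 4 and 2473, 5186, 1904 and 1040 in GPC6 replicates 1 to 4. Here the order of libraries differed from that of the other markers, since GPC6 replicate 2, where the 7 members other than S100b, Lcn2 and Serpina3n were below their own means, was the highest library. The summed markers of oligodendrocyte precursors were also highest in that library, at 78457 normalized counts against 14929 to 57233 in the other 6, and their part in the S100b level was not tested. The log2 fold change of S100b was -0.48 with a standard error of 0.57 (limma adjusted p = 0.814). The ratio of Gfap to S100b was 1.67 in GPC6 replicate 2 and 13.3 and 13.7 in GPC6 replicates 3 and 4, against 4.77 in GPC6 replicate 1 and 4.26 to 7.82 in the 3xCR libraries. Of the other S100 genes and their receptor Ager, 8 of 9 were tested, 2 higher and 6 lower, with a median log2 fold change of -0.40. S100a6 had 2065, 1802 and 6894 in 3xCR replicates 2 to 4 and 754, 644, 741 and 1035 in GPC6 replicates 1 to 4, a log2 difference of -1.92 with a standard error of 0.46 (adjusted p = 0.730 in limma). S100a4 was likewise lower in every GPC6 library than in every 3xCR library (log2 fold change -1.25). Both are linked to motility and mesenchymal states of tumor cells, and 3.52% of all genes tested had groups apart in this direction. S100a16 was the most abundant of the family (log2 fold change -0.19) and S100a9 had the largest value (0.47).

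Agt, Lcn2 and Serpina3n encode secreted proteins that are induced in the acute-phase response of the liver, where the factors STAT3, NF-kB and C/EBP take part, and in astrocytes. The 250 bases before their RefSeq start sites (GRCm38.p6, printed 5′ to 3′ on the strand of the gene) are shown because motifs of these factors can be looked for in them. They are chr8:124569707-124569956 on the minus strand for Agt, chr2:32387740-32387989 on the minus strand for Lcn2 and chr12:104406458-104406707 on the plus strand for Serpina3n. Capitals mark matches to 4 motifs searched on both strands, TTCNNNGAA (STAT), GGG and TTTCC with any 2 bases between them (NF-kB), TTGCNNAA (C/EBP) and TATAAA.
Agt: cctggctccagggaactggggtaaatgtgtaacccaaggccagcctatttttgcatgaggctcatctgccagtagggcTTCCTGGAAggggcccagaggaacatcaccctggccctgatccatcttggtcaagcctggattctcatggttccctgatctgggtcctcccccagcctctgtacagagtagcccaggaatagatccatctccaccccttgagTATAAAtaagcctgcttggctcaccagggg
Lcn2: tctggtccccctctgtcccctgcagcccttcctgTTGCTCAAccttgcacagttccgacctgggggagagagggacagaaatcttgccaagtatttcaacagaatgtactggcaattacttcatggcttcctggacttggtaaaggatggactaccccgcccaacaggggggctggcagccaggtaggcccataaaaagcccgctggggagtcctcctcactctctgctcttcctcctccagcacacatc
Serpina3n: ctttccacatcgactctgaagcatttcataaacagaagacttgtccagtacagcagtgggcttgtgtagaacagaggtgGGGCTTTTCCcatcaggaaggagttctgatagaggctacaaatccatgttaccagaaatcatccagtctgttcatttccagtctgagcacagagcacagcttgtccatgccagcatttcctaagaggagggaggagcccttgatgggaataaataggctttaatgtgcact
Agt held a STAT match 172 bases and TATAAA 30 bases before the start, Lcn2 a C/EBP match at 216 bases, and Serpina3n an NF-kB match at 171 bases, with no overlap among them. Of the 32851 promoter windows of the same length, 7.02% held the STAT letters, 1.41% those of NF-kB, 9.56% those of C/EBP and 12.4% TATAAA. Among the 10 windows of the 9 members with an entry, the STAT letters and TATAAA were found for Agt, the NF-kB letters for Serpina3n, and the C/EBP letters for Lcn2 and Aldh1l1. These are matches of letters and not measured binding.

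Agt encodes angiotensinogen, which astrocytes make in the brain and most strongly in the hypothalamus and brainstem. It had 757, 369 and 93.9 normalized counts in 3xCR replicates 2 to 4 and 2659, 450, 485 and 355 in GPC6 replicates 1 to 4. GPC6 replicate 1 was far above the others, and the other 3 GPC6 libraries lay within the 3xCR range. It had the largest log2 fold change of the set, 1.18 with a standard error of 0.88 (limma adjusted p = 0.738), which was 0.52 without GPC6 replicate 1, 0.35 without 3xCR replicate 4 and 1.85 without 3xCR replicate 2. The library with the high Agt was the one with 541 and 428 normalized counts of Avp and Oxt, neuropeptides of the hypothalamus, against at most 7.10 and 2.66 in the others, and the part of this in the Agt level was not tested. The tested genes nearest to Agt in pattern over the 7 libraries were Myh3, Rasl10b and Cmya5 (root mean square differences of 0.23, 0.27 and 0.29). The receptors and enzymes of the angiotensin system were mostly scarce. Of 11 listed genes 7 were tested, 4 higher and 3 lower with a median log2 fold change of 0.09, from Enpep (1.79, with means of 8.31 and 19.1) to Ace, the converting enzyme (-0.85), and the most abundant was the renin receptor Atp6ap2, with 1186 ± 89.0 (SD, n = 3) and 1668 ± 615 (SD, n = 4).

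Lcn2 encodes lipocalin 2, a secreted carrier of iron-binding siderophores and one of the most inducible genes of reactive astrocytes. It had 143, 3578 and 2037 normalized counts in 3xCR replicates 2 to 4 and 151, 352, 2086 and 504 in GPC6 replicates 1 to 4. High and low tumors occurred in both groups, and the extremes of the 7 libraries were both 3xCR tumors, 25.1 times apart. The log2 fold change was -1.06 with a standard error of 1.22 (limma adjusted p = 0.810), and it was -2.47 without 3xCR replicate 2, -1.76 without GPC6 replicate 3, -0.15 without 3xCR replicate 3, and 0.02 without both GPC6 replicates 1 and 2. Lcn2 did not follow Gfap. In 3xCR replicate 2, with 24861 normalized counts of Gfap, Lcn2 was at its minimum, and in 3xCR replicate 4, with the lowest Gfap, it was high, so that Lcn2 per Gfap ran from 0.00573 to 0.279 in the 3xCR group alone. In the GPC6 group it ran from 0.0128 to 0.0823. Of 10 neutrophil markers, 8 were in the table. Their sum was 19.2, 66.0 and 38.7 normalized counts in 3xCR replicates 2 to 4. In GPC6 replicates 1 to 4 it was 23.2, 19.8, 48.8 and 78.2. The sum was thus lowest in 3xCR replicate 2 and GPC6 replicates 1 and 2, the libraries lowest in Lcn2. It was highest in GPC6 replicate 4, where Lcn2 was at 504. S100a8 and S100a9 were highest in GPC6 replicate 4 (34.0 and 32.9), followed by 3xCR replicate 3 (22.3 and 23.3). The granule genes Camp, Ngp and Ltf were each at 2.76 or less in every library. Mpo of the same list was at 16.6 in 3xCR replicate 4 and at most 4.44 in the others. The part of neutrophils in the Lcn2 level was not tested. The genes nearest to Lcn2 in pattern were Car9, Usp44 and Sec16b (root mean square differences of 0.64, 0.68 and 0.69), so none was close. Its receptor Slc22a17, abundant throughout at 954 to 7424, differed by 0.89 on the log2 scale with a standard error of 0.64 (adjusted p = 0.732 in limma), and Mmp9, which lipocalin 2 binds, had -0.59 with 916 normalized counts in 3xCR replicate 4 and 7.67 to 217 in the others.

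Serpina3n encodes a secreted inhibitor of serine proteases and is a marker of reactive astrocytes that inflamed oligodendrocytes also express. It had 3284, 7389 and 5108 normalized counts in 3xCR replicates 2 to 4 and 3642, 6103, 3827 and 1184 in GPC6 replicates 1 to 4. It was abundant in all libraries, with GPC6 replicate 4 well below and the other 3 GPC6 libraries inside the 3xCR range. The log2 fold change was -0.65 with a standard error of 0.55 (limma adjusted p = 0.75) and -0.18 without GPC6 replicate 4. Although both are called pan-reactive, Lcn2 and Serpina3n were not proportional. Lcn2 per Serpina3n was 0.0434, 0.0416 and 0.0576 in 3xCR replicate 2 and GPC6 replicates 1 and 2, and 0.399 to 0.545 in the other 4 libraries, with no ratio between. Serpina3n has close paralogs beside it on chromosome 12, to which some of its reads may have been assigned, and the nearest gene in pattern was its neighbor Serpina3c (root mean square difference 0.19), with a mean of 21.7 normalized counts, followed by Fbxo36 and Sgms2. Of 10 other Serpina3 genes 8 were tested, 2 higher and 6 lower in GPC6 tumors (median log2 fold change -0.68). Serpina3g was the most abundant, with means of 2099 ± 1259 (SD, n = 3) and 1018 ± 495 (SD, n = 4), and Serpina3m, with 276 ± 163 (SD, n = 3) and 112 ± 74.0 (SD, n = 4), had the lowest log2 fold change. The 2 that were higher, Serpina3b and Serpina3j, were at 0 in 3xCR replicates 2 and 3 and at 9.26 to 34.6 in the other 5 libraries, and both were below an unadjusted p of 0.05 (log2 fold changes of 2.92 and 2.70, limma adjusted p = 0.730 for both), where 2.74% of all genes were in this direction.

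**Figure D3:**
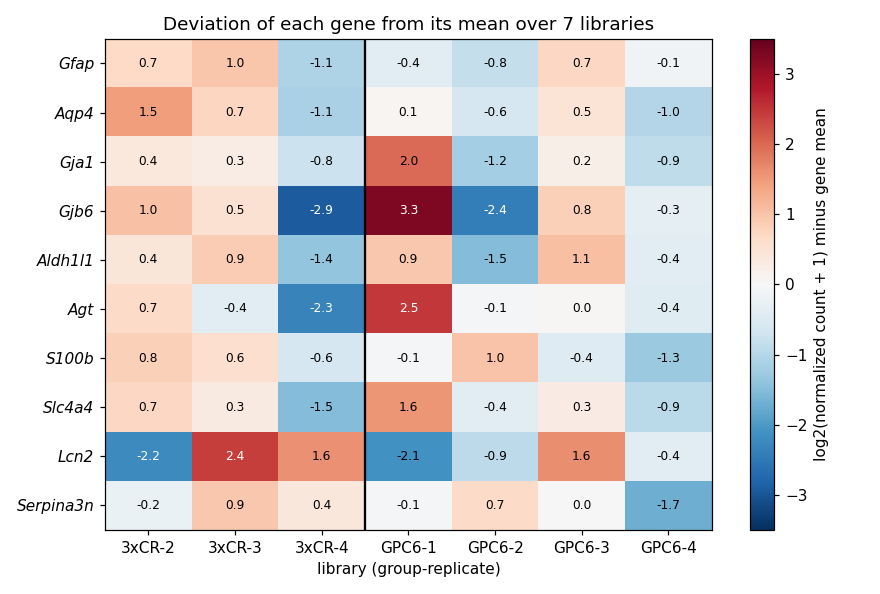
Each cell gives log2(normalized count + 1) of a gene (rows) in a library (columns, group and replicate number) minus the mean of the gene over the 7 libraries, with the groups divided by a black line. The columns of 3xCR-4, GPC6-2 and GPC6-4 are mostly blue and those of 3xCR-2, 3xCR-3 and GPC6-3 mostly red, except for Lcn2 and in part S100b and Serpina3n.

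The libraries fell into higher and lower ones for the mature astrocyte genes, and each group had both. Leaving aside Lcn2 and Serpina3n, all 8 other members were below their own mean in 3xCR replicate 4 and in GPC6 replicate 4, and 7 of 8 were in GPC6 replicate 2. In 3xCR replicates 2 and 3 and GPC6 replicates 1 and 3, 8, 7, 6 and 7 of the 8 were above it. The median deviation of the 8 was -1.26, -0.65 and -0.72 in the 3 lower libraries in the order given, and 0.71, 0.55, 1.24 and 0.38 in the 4 higher ones. A list of 30 other mature astrocyte genes, all of them tested, had medians of -1.33, -0.45 and -0.29 in the same 3 lower libraries and 0.58, 0.19, 1.18 and 0.31 in the others. In 3xCR replicate 4, all 30 of these were below their mean, and in GPC6 replicate 4, 24 were. GPC6 replicate 2 was more mixed, with 19 below and 11 above. In 3xCR replicates 2 and 3 and GPC6 replicates 1 and 3, 29, 24, 26 and 26 were above. In the comparison of the groups, 22 of the 30 had a higher and 8 a lower mean in GPC6 tumors, beside 48.3% higher among all genes, with a median log2 fold change of 0.29 and 0 below an unadjusted p of 0.05. Without 3xCR replicate 4 the count was 7 higher and 23 lower (median -0.26), without GPC6 replicate 1 it was 17 and 13 (0.09), and without 3xCR replicate 2 it was 29 and 1 (0.69). Glul, the glutamine synthetase that converts glutamate taken up by astrocytes, was the most abundant, at 19457, 11195 and 3812 in the 3xCR and 31578, 5440, 9200 and 5838 in the GPC6 libraries. The glutamate transporter genes Slc1a2 and Slc1a3 had log2 fold changes of 1.05 and 0.62 (adjusted p = 0.763 and 0.756 in limma). Cldn10 had the largest value of the list (1.25) and Slc14a1, a urea transporter, the smallest (-0.54).

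Genes of astrocyte reactivity had another distribution over the libraries. All 10 other pan-reactive genes (Steap4, S1pr3, Timp1, Hspb1, Cxcl10, Cd44, Osmr, Cp, Aspg and Vim) had a lower mean log2 value in GPC6 tumors, as did 7640 of all 14782 genes tested. The median log2 fold change of the 10 was -0.75. Of the genes described for the A1 type, a neurotoxic state induced by microglia, 11 of 12 were tested and all 11 were lower (median -0.71), and of the A2 type, described after ischemia, 11 of 12 were lower (median -0.70). In limma none passed an adjusted p of 0.05, and the number with a lower mean and an unadjusted p under 0.05 was 1 in the first list and 2 in each of the others, beside 1.92% of all genes. These were Hspb1 (log2 fold change -1.24), Iigp1 (-1.46) and Serping1 (-1.24), and Sphk1 (-2.02) and Clcf1 (-1.70). Timp1, an inhibitor of metalloproteinases, had 105, 395 and 1332 normalized counts in 3xCR replicates 2 to 4 and 30.9, 159, 164 and 79.2 in GPC6 replicates 1 to 4 (log2 fold change -2.08 ± 0.90 (SE), adjusted p = 0.730 in limma), and its lower mean rested in part on 3xCR replicate 4. At the upper end were Cp in the pan-reactive list (-0.06), Amigo2 in the A1 list (-0.11) and Ptgs2, the only A2 gene with a higher mean log2 value (1.15), and the most abundant A1 and A2 genes were H2-D1 (-0.71) and S100a10 (-0.47).

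The library medians of the reactive lists were highest in 3xCR replicate 4 (0.85, 1.16 and 0.90 for the pan-reactive, A1 and A2 lists), the tumor with the lowest mature astrocyte genes, and lowest in GPC6 replicate 1 (-1.11, -0.84 and -1.35), the tumor with the highest. 3xCR replicate 3 and GPC6 replicate 3 were above 0 in all 3 lists and 3xCR replicate 2 and GPC6 replicate 2 below, so no list separated the groups. Without GPC6 replicate 1 the A2 list had 5 genes higher and 7 lower (median -0.35), and its median was -1.14, -0.45 and -1.10 without 3xCR replicate 2, 3xCR replicate 4 or GPC6 replicate 3. Without 3xCR replicate 4 the A1 list had 3 higher and 8 lower (median -0.35). With weights per library, which gave most of the weight to 3xCR replicate 3 and GPC6 replicate 3, the pan-reactive list had 6 genes higher and 4 lower (median 0.05). In that fit 2 pan-reactive and 2 A2 genes passed an adjusted p of 0.05, where 1962 of all 14782 genes did. Without both GPC6 replicates 1 and 2, the A2 list had 6 genes higher and 6 lower (median -0.14) and the pan-reactive list 3 and 7 (median -0.32). Many of these genes are also expressed by microglia and macrophages. Summed markers of microglia (10 of 10 measured) were 30636 to 53929 normalized counts in 3xCR and 15980 to 27401 in GPC6 tumors, without overlap between the groups (two-sided exact permutation test, n = 3 and 4, p = 0.0571, the smallest p that 3 against 4 allow). This was the smallest p of 13 marker lists compared, adjusted p = 0.743 over them by the permutation test, and 6.32% of all genes had groups apart. The sums for monocytes and macrophages (8 of 8 measured) overlapped, at 3344 to 34872 and 638 to 11437, with the highest in 3xCR replicate 4 and the lowest in GPC6 replicate 1. The summed markers of meningeal fibroblasts (7 of 7 measured, with Pdgfra, which is also a marker of oligodendrocyte precursors) were 6931 to 30162 and 4041 to 20748, again highest in 3xCR replicate 4, the library with the highest Timp1 and S100a6. The part of these cells in the reactive lists, Timp1 and S100a6 was not tested.

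**Figure D4:**
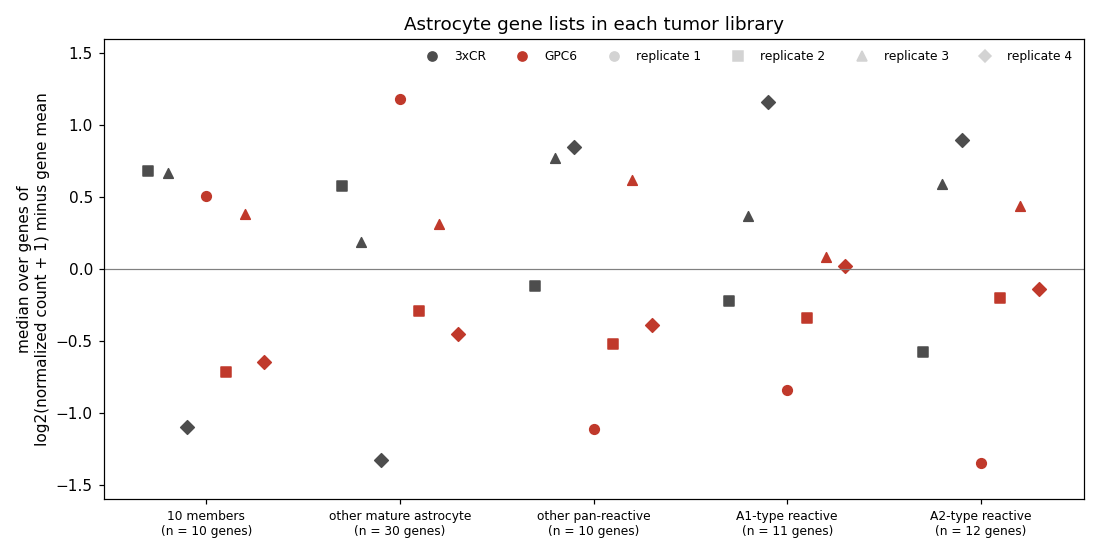
For each list of astrocyte genes (x axis), the median over its genes of log2(normalized count + 1) minus the mean of the gene, in each of 3 3xCR (grey) and 4 GPC6 libraries (red). 3xCR replicate 4 (grey diamond) is lowest for the 10 members and the other mature genes and highest for the 3 reactive lists, and GPC6 replicate 1 (red circle) is highest for the other mature genes and lowest for the reactive lists.

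Cytokines and signaling genes of the pathways behind reactivity had mostly lower means in GPC6 tumors, 12 of 14 tested of 16 listed. Over all 14782 genes tested, 7640 had a lower mean. The list also holds inhibitors of these pathways, and Socs3 and Nfkbia (log2 fold change -0.39) were among the lower genes. The median log2 fold change of the 14 was -0.51, with 0 of them below an unadjusted p of 0.05. Stat3, the transcription factor behind Gfap induction, was at 2844 to 2939 in the 3xCR libraries and at 1434, 3831, 2857 and 3289 in GPC6 replicates 1 to 4 (log2 fold change -0.11). Its target and inhibitor Socs3 ranged more widely, with 368, 796 and 1233 against 80.4, 433, 677 and 771 (log2 fold change -0.95 ± 0.80 (SE), adjusted p = 0.749 in limma). Tnf had the smallest value (-1.11) and Jak1 the largest (0.14). Il6 and Cntf were too scarce to be tested, with at most 6.91 and 3.55 normalized counts.

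Per kilobase of annotated exons, which allows levels of different genes to be compared, Gfap had a median of 3368 normalized counts over the 7 libraries. Serpina3n (1854) and S100b (1666) followed and exchanged places between libraries, as Serpina3n was the higher in 4 of 7. A gap separated these from Aqp4 (310), which S100b exceeded in all 7 libraries. Agt (238), Aldh1l1 (202) and Lcn2 (192) came next, and Slc4a4 (79.9), Gja1 (78.2) and Gjb6 (75.8) were last. The ranges of all neighbors in this order overlapped. Gfap was first in 5 of 7 libraries, with Serpina3n above it in 3xCR replicate 4, and both S100b and Serpina3n above it in GPC6 replicate 2. Lcn2 moved most in the order, from rank 4 in 4 libraries to rank 10 in 3xCR replicate 2 and GPC6 replicate 1, and the normalized count per kilobase of Gjb6 ran from 6.72 to 506. The exon length covers all annotated transcripts of a gene, so that a gene with long rare exons, such as Slc4a4 with 10815 bases, appears lower.

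**Figure D5:**
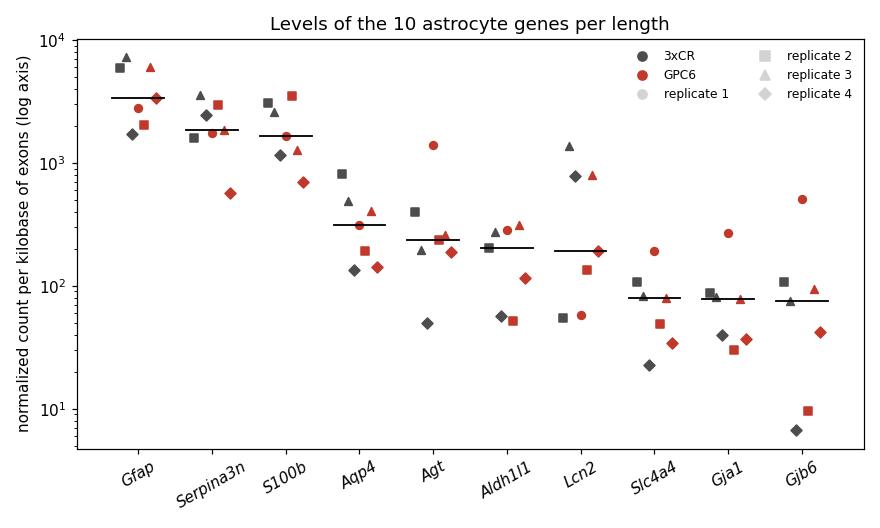
Normalized counts per kilobase of annotated exons (log axis) for the 10 genes, ordered by their median over 7 libraries (black bar), with 3xCR libraries in grey and GPC6 libraries in red. The medians fall from 3368 for Gfap to 75.8 for Gjb6, and the libraries of each gene spread so widely that neighbors overlap.

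In the genome (GRCm38, GENCODE M21) the members are scattered, with S100b (76253853 to 76261159) and Gja1 (56377330 to 56402513) alone sharing a chromosome, chromosome 10. Gfap lies on chromosome 11 (102887336 to 102900912), Gjb6 on chromosome 14 (57123303 to 57133611), Aldh1l1 on chromosome 6 (90486427 to 90600203), Agt on chromosome 8 (124556534 to 124569706), Slc4a4 on chromosome 5 (88886818 to 89239653), Lcn2 on chromosome 2 (32384633 to 32388252) and Serpina3n on chromosome 12 (104406729 to 104414329). Counts were taken over whole genes, so the isoforms of Gfap, Slc4a4 or Aldh1l1 cannot be told apart.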

How the data were processed

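Bulk RNA-Seq of 7 endpoint tumors was analysed, 3 of the 3xCR and 4 of the GPC6 group, each from a separate brain. Per the labels, the authors aligned reads with STAR 2.5.0a to the mouse genome (mm10) and deposited counts normalized with DESeq2 1.20.0, a signal proportional to reads. The libraries were made with a stranded mRNA kit and the count matrices with Rsamtools and GenomicFeatures. Whether counting used the strand is not given in the sources used here. Dividing by the value of 1 read gave whole reads for 100% of values (tolerance 0.01, largest deviation 3.17e-04). Of 19282 entries, 25 whose names had become dates (0.254% to 0.361% of reads) were left out, and 96.0% of the genes matched GENCODE M21 by symbol. Per-sample columns not used numbered 0.

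Values were tested as log2(normalized count + 1) for 14782 genes with a mean of at least 10, using limma 3.58.1 in R 4.3.3 with a mean-variance trend, two-sided, and p-values were adjusted after Benjamini and Hochberg. Fold changes are on that scale and understate changes of scarce genes. Single values were also compared by two-sided exact permutation tests over 35 splits (smallest p 0.0571). Over the 10 members these gave an adjusted p of 0.971 for each. Recovered reads were tested with edgeR 4.0.16 and DESeq2 1.42.0 as alternatives. Scripts were tested on simulated data. The limit for a count of 0 is 3 reads and covers counting error only.

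The members and gene lists were chosen with earlier results of these data known. From each list the text names the most abundant gene and the genes at both ends of the log2 fold changes. Genes with an unadjusted p under 0.05 or groups apart were named too, and Slc1a2, Slc1a3, Socs3, Il6, Cntf, Avp, Oxt and the ratios between members were chosen after their values were seen. Likeness of pattern was the root mean square difference of centred log2 values. Promoters are from RefSeq (GRCm38.p6), with 10 entries for 9 members.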

Additional observations from a re-analysis of the deposited data

Results flagged for a closer look

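Agt in GPC6 replicate 1, at 2659 normalized counts, lay far from the other 3 GPC6 libraries (355 to 485). On the log2 scale, its gap to the nearest of them was 0.845 of the range of the group, above Dixon's 95% critical value for 4 samples. Of 10 members examined in the GPC6 group, 1 had such a value, where chance gives about 1 in 20, or 0.5 of 10. The same library had 1187 normalized counts of summed hypothalamic neuron markers and 12690 of choroid plexus markers, against 16.7 to 65.6 and 64.8 to 3790 in the other 6, and their part in the Agt value was not tested.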

How the results depend on the processing

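Of 19 alternatives, 17 called 0 genes at an adjusted p under 0.05, while DESeq2 called 4 and limma with library weights 1962, with weights of 8.71 on 3xCR replicate 3 and 4.47 on GPC6 replicate 3 against 0.301 to 0.849 on the others. No member passed under any of them, although 2 members (S100b and Serpina3n) were below an unadjusted p of 0.05 with weights, 1 (Lcn2) without 3xCR replicate 2 and 1 (Aqp4) without 3xCR replicate 4. Of all genes tested, 5105 of 14782 were below it with weights, 1137 of 14798 without 3xCR replicate 2 and 119 of 14722 without 3xCR replicate 4. Aqp4, Agt, S100b and Serpina3n kept their direction in all 19. With 1 library left out, log2 fold changes ranged from -0.99 to 0.04 for Gfap, -1.37 to -0.08 for Aqp4, -0.57 to 0.49 for Gja1, -0.43 to 1.71 for Gjb6, -0.63 to 0.57 for Aldh1l1, 0.35 to 1.85 for Agt, -0.91 to -0.11 for S100b, -0.40 to 0.73 for Slc4a4, -2.47 to -0.15 for Lcn2 and -0.97 to -0.18 for Serpina3n, the median of the members from -0.59 to 0.17, and 0 genes were called each time. Direction turned for Aldh1l1 with an equal upper quartile (-0.0008), and with weights for Gja1 (-0.12), Aldh1l1 (-2.5e-05) and Slc4a4 (-0.06). Without 3xCR replicate 3 Gfap was 0.04. Without 3xCR replicate 4 Gja1 was -0.28, Gjb6 -0.43, Aldh1l1 -0.63 and Slc4a4 -0.40, without GPC6 replicate 1 they were -0.57, -0.18, -0.25 and -0.19, and without GPC6 replicate 3 Aldh1l1 was -0.29. Without both GPC6 replicates 1 and 2, a choice made after seeing the data, Gfap was 0.10, Gja1 -0.29, Slc4a4 -0.16 and Lcn2 0.02. The cause was not tested. Same-numbered libraries correlated in their deviations at -0.194, 0.118 and 0.296 (replicates 2, 3 and 4), so the numbers were not taken to pair the samples. With the replicate number as a block, which leaves GPC6 replicate 1 without a partner, 0 genes were called (678 at an unadjusted p under 0.05 against 689 without the block), the median of the members was -0.39, and Gja1, Gjb6, Aldh1l1 and Slc4a4 were -0.57, -0.18, -0.25 and -0.19. Of the 3xCR libraries, 3xCR replicate 4 alone correlated best with its own number.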
